A study of Mus musculus with 30 samples.

Results

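The 10 genes described here make, bind, degrade or sense retinoic acid, or are switched on when germ cells of the testis enter meiosis: Stra8, Gm4969 (now named Meiosin), Rara, Rarg, Aldh1a1, Aldh1a2, Cyp26a1, Cyp26b1, Crabp1 and Rdh10. They were found by matching symbols to the Ensembl identifiers of the deposited expression table, and all 10 were among its 65534 genes and loci. The table holds polyadenylated RNA from germ cells enriched from the testes of male mice, with seminiferous tubules digested by Liberase and the interstitial cells washed off. Animals were Prdm9-/-, Prdm9+/- or Prdm9+/+ at 8, 12 or 16 days post partum (dpp), and the strain label gives C57BL/6J carrying under 10% 129S1/SvImJ for all of them. Prdm9 encodes a histone methyltransferase of early meiotic cells that marks the places of recombination; how its mutant allele was made is not given in the sources used here. Each age has 5 -/- libraries, here called mutants, and 5 non-mutants, which are 2 +/- with 3 +/+ at 8 dpp, 4 +/- with 1 +/+ at 12 dpp and 3 +/- with 2 +/+ at 16 dpp. The animals came from 14 litters.

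Retinoic acid is made from vitamin A by stepwise oxidation. Retinol dehydrogenases such as RDH10 give retinaldehyde, and the retinaldehyde dehydrogenases ALDH1A1 and ALDH1A2 turn it into retinoic acid. CRABP1 binds retinoic acid in the cytoplasm, CYP26A1 and CYP26B1 break it down, and the nuclear receptors RARA and RARG carry the signal to target genes. In the mouse testis, retinoic acid drives spermatogonia to differentiate and later to enter meiosis. At meiotic entry it induces Stra8, whose product works with MEIOSIN as a transcription factor pair at genes of meiotic prophase. The first wave of this process runs through the ages sampled here, with pachytene cells appearing by the last of them. In the mouse testis, Aldh1a1 and Rara are best known from Sertoli cells, Aldh1a2 from spermatocytes, Rarg and Crabp1 from spermatogonia and Cyp26b1 from peritubular cells.

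The promoters of 9 of the 10 genes were looked up in RefSeq (GRCm38.p6), as windows of 300 bases from 250 before to 50 after a transcript start; Rdh10 is named only. They were searched on both strands for the half-sites that retinoic acid receptors bind (AGGTCA, with the forms AGTTCA and also GGGTCA and also GGTTCA), for direct repeats of these with 1, 2 or 5 bases between, and for CNCCTCAG, the motif described for STRA8 in mouse testis. Half-sites also make up the direct repeats, so those motifs overlap. A direct repeat with 5 bases between was found in 1 gene, Cyp26a1, and in 32 of all 32851 windows, 0.0974% of them. It read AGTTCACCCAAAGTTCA on the other strand and began 32 bases before the start. Repeats with 1 and 2 bases between were found in none of the 9 genes searched and in 0.222 and 0.268% of all windows. A half-site was found in 5 of the 9 genes, Stra8, Rara, Rarg, Aldh1a1 and Cyp26a1, and occurs in 43.7% of all windows. The Stra8 window held AGGTCA beginning 194 and 38 bases before the start. The Gm4969 window held CGCCTCAG beginning 44 bases before the start, a match to CNCCTCAG, which 7.94% of all windows hold. The second Aldh1a1 window held CACCTCAG on the other strand, 177 bases before its start. The 3 promoters shown are those of the meiotic entry genes and of the gene with the direct repeat. They cover the 250 bases before the start, 5′ to 3′ on the strand of the gene, with the half-sites of Stra8, the CNCCTCAG match of Gm4969 and the direct repeat of Cyp26a1, here read on the strand of the gene, in capitals. A match says only that the letters are there.
Stra8, chr6:34920698-34920947, plus strand: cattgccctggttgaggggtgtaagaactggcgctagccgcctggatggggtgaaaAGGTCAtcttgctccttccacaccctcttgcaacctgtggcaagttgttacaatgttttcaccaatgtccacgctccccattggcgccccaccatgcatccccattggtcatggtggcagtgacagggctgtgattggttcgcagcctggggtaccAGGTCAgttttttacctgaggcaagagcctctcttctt
Gm4969, chr7:19118345-19118594, minus strand: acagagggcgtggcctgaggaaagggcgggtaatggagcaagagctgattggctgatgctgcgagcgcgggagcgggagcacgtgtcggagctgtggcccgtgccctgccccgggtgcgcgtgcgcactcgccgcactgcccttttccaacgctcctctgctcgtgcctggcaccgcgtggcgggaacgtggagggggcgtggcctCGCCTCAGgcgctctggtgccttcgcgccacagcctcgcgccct
Cyp26a1, chr19:37697558-37697807, plus strand: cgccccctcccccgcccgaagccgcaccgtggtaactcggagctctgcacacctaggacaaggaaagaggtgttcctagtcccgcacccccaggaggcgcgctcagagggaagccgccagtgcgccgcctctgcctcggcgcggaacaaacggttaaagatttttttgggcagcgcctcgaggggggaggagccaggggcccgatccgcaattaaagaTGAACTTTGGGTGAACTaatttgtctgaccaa

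Values are TPM, the length-adjusted share of a transcript in its library, so levels can be set side by side between genes. TPM keeps no read depth. Where values are given library by library they stand in replicate order, for non-mutants +/- before +/+. Prdm9 was read as a check of the labels. At 16 dpp it was at 6.89 to 12.8 TPM in -/- libraries and 19.7 to 34.4 TPM in non-mutants. At 8 dpp it was at 4.77 to 8.98 TPM in -/- libraries and 1.82 to 6.10 TPM in non-mutants, with means of 7.23 and 4.80 TPM. These ranges overlapped with the mutants higher on average, so Prdm9 cannot check the labels of 8 dpp. At 12 dpp litter 13 went against its labels, with 19.2 TPM in the library labelled -/- replicate 5 and 9.16 TPM in the one labelled +/- replicate 4. All values at 12 dpp below include these 2 libraries as labelled. The enriched germ cells also held Sertoli cell RNA: the 10 Sertoli markers summed to 4853 to 7953 TPM per library, none of them at 0. Markers of leptotene and zygotene cells (6 genes) summed to 75.6 to 199.6 TPM in mutants and 69.9 to 162.9 TPM in non-mutants at 8 dpp, and to 694 to 1146 TPM in mutants and 807 to 1200.4 TPM in non-mutants at 16 dpp. Markers of pachytene and diplotene cells (7 genes) summed to 93.7 to 127 TPM in mutants and 218 to 1260.0 TPM in non-mutants at 16 dpp. In such mixed samples, fewer cells of a type and less RNA per cell cannot be told apart.

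The 10 genes spanned more than 2 orders of magnitude. Over all 30 libraries the medians ran from 913 TPM for Aldh1a1 through 164.5 TPM for Stra8, 109 TPM for Cyp26b1, 103 TPM for Crabp1, 57.6 TPM for Gm4969, 55.8 TPM for Aldh1a2, 54.7 TPM for Rara, 19.8 TPM for Rdh10 and 18.1 TPM for Rarg to 3.81 TPM for Cyp26a1. Aldh1a1, at 694 TPM or more in every library, lay above every value of the other 9 genes. The neighbours Stra8, Cyp26b1 and Crabp1 overlapped in their ranges over libraries, as did Gm4969, Aldh1a2 and Rara, and Rdh10 with Rarg. Gm4969 varied most, by 55.9 times between its lowest and highest library, followed by Aldh1a2 (20.6 times), Stra8 (8.54 times) and Cyp26a1 (7.92 times). Rdh10 varied least, by 1.63 times, from 14.9 to 24.4 TPM.

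**Figure D1:**
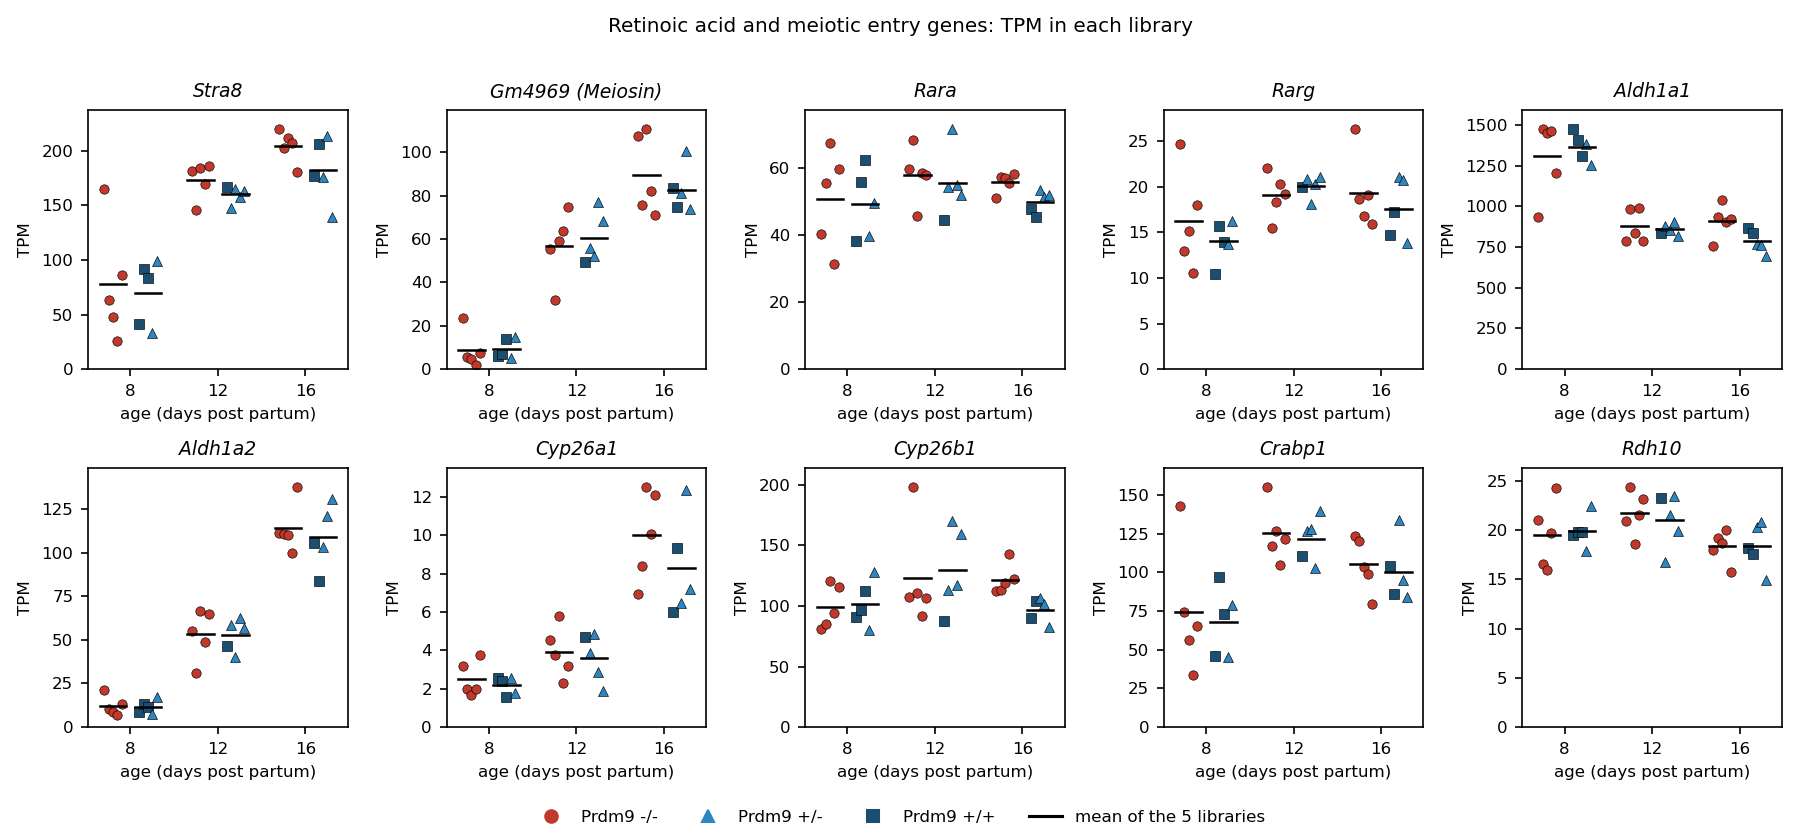
TPM of each gene (y axis, linear and starting at 0) in each library at 8, 12 and 16 dpp (x axis), with mutants left and non-mutants right at each age and the mean of 5 libraries as a bar. Stra8, Gm4969 and Aldh1a2 are high from 12 dpp on, Cyp26a1 is highest at 16 dpp and Aldh1a1 is highest at 8 dpp. Mutants and non-mutants lie over each other except for Cyp26b1 at 16 dpp, a difference that was not called.

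The first comparison asked how the genes moved with age. Between 8 and 12 dpp, Stra8, Gm4969, Aldh1a2 and Crabp1 rose and Aldh1a1 fell, in mutants and in non-mutants. Between 12 and 16 dpp, Aldh1a2 and Cyp26a1 rose in both. The test was limma on log2(TPM + 1) over 20021 rows above 1 TPM in at least 5 libraries, with 1 fit of 6 groups and p-values adjusted over all rows by the Benjamini-Hochberg method, and a gene was called where the adjusted p was under 0.05. All 10 genes passed that filter. Fold changes on this scale understate the change of low genes. From 8 to 12 dpp, 4 of the 10 genes rose and 1 fell in mutants, where 17.5% of all rows rose and 12.2% fell. In non-mutants 5 rose and 1 fell, where 20.3% of all rows rose and 12.1% fell. The shares of the 10 genes that rose lay above those backgrounds, and the share that fell lay near them. From 12 to 16 dpp, 2 of the 10 rose in each class, where 6.21% of all rows rose in mutants and 8.88% in non-mutants. The split of all rows depended on scaling: with median-ratio scaling 2898 rose and 3127 fell from 8 to 12 dpp in mutants, against 3496 and 2452 without it. In non-mutants 3036 rose and 3348 fell with it and 3245 rose and 3038 fell with quantile normalization, against 4067 and 2430 without either. From 12 to 16 dpp in non-mutants 2585 rose and 1672 fell with it, against 1777 and 2595 without it. The calls of the 10 genes stayed as they were under median-ratio scaling and under quantile normalization.

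Of the genes that supply retinoic acid, Aldh1a2 changed most. Aldh1a2 (ENSMUSG00000013584, chr9:71215789-71296243, plus strand, mm10) had 21.2, 10.4, 8.75, 6.69 and 13.4 TPM in the 5 mutants at 8 dpp, 54.9, 30.7, 66.6, 48.8 and 64.8 TPM at 12 dpp, and 111, 110.7, 110.05, 99.5 and 138 TPM at 16 dpp. In non-mutants it had 7.29 and 17.1 TPM (+/-) and 8.74, 13.5 and 11.2 TPM (+/+) at 8 dpp. At 12 dpp it had 58.5, 40.1, 62.5 and 56.7 TPM (+/-) and 46.4 TPM (+/+), and at 16 dpp 103, 121 and 131 TPM (+/-) and 106 and 83.5 TPM (+/+). The 3 ages did not overlap in either class, and within each age the mutant and non-mutant ranges did. The 12 minus 8 dpp log2 difference was 2.10 in mutants (SE 0.227, limma adjusted p = 6e-08) and 2.14 in non-mutants (SE 0.227, limma adjusted p = 6.76e-08). The 16 minus 12 dpp log2 difference was 1.13 in mutants (limma adjusted p = 0.0012) and 1.03 in non-mutants (limma adjusted p = 0.00139). By means, Aldh1a2 at 16 dpp was 9.42-fold above 8 dpp in mutants and 9.41-fold in non-mutants. The processed pseudogene Gm48124 lies inside Aldh1a2 on the other strand, and whether counting used strand is not stated.

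Aldh1a1 (ENSMUSG00000053279, chr19:20492715-20643465, plus strand, mm10) went the other way. It averaged 1306 ± 236 TPM in mutants and 1364 ± 85.4 TPM in non-mutants at 8 dpp, 877 ± 102 TPM in mutants and 858 ± 34.6 TPM in non-mutants at 12 dpp, and 909 ± 103 TPM in mutants and 785 ± 68.3 TPM in non-mutants at 16 dpp (SD, n = 5 each). The 12 minus 8 dpp log2 difference was -0.56 in mutants (SE 0.101, limma adjusted p = 9.73e-05) and -0.67 in non-mutants (SE 0.101, limma adjusted p = 1e-05). With quantile normalization these were -0.30 and -0.38, still past the threshold. The ranges of the 2 ages did not overlap in non-mutants, while in mutants -/- replicate 1 at 8 dpp, with 935 TPM, lay inside the range of 786 to 991 TPM at 12 dpp. The summed Sertoli markers gave 4853 to 6655 TPM in mutants at 8 dpp and 7240 to 7756 TPM at 12 dpp, and 5430 to 7329 TPM in non-mutants at 8 dpp and 6458 to 7953 TPM at 12 dpp. Most of this sum was Clu, with means of 3396 and 5171 TPM in mutants and 4064 and 4881 TPM in non-mutants at 8 and 12 dpp. The means of Amh went down, from 570 to 281 TPM in mutants and from 649 to 241 TPM in non-mutants. The sum is therefore no measure of all Sertoli genes. Of the 10 Sertoli markers, 3 rose and 2 fell at this step in mutants, and 3 rose and 5 fell in non-mutants. Set against Aldh1a1, Aldh1a2 had a median ratio of 0.007 in mutants and 0.0086 in non-mutants at 8 dpp, 0.0696 and 0.0667 at 12 dpp, and 0.119 in mutants and 0.135 in non-mutants at 16 dpp. On the opposite strand C730002L08Rik and the pseudogene Gm6684 overlap Aldh1a1, and the near copy Aldh1a7 may share reads with it. Aldh1a7 rose where Aldh1a1 fell, by a log2 difference of 0.46 in mutants (limma adjusted p = 0.00266) and 0.49 in non-mutants (limma adjusted p = 0.00141).

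Rdh10 (ENSMUSG00000025921, chr1:16105774-16133734, plus strand, mm10), which makes the retinaldehyde that both enzymes use, passed no age test. It averaged 19.5 ± 3.42 TPM in mutants and 19.9 ± 1.62 TPM in non-mutants at 8 dpp, and 18.3 ± 1.61 TPM in mutants and 18.4 ± 2.37 TPM in non-mutants at 16 dpp (SD, n = 5 each). Its 12 minus 8 dpp log2 difference had a 95% confidence interval of -0.07 to 0.39 in mutants and -0.16 to 0.29 in non-mutants. Its 16 minus 12 dpp log2 difference was -0.23 in mutants (limma adjusted p = 0.181) and -0.18 in non-mutants (limma adjusted p = 0.245).

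Crabp1 (ENSMUSG00000032291, chr9:54764748-54773110, plus strand, mm10), the cytoplasmic binding protein, had 143, 74.2, 56.4, 33.4 and 65.1 TPM in the mutants and 45.5, 78.8, 45.7, 96.7 and 73.4 TPM in the non-mutants at 8 dpp. At 12 dpp it had 105.0 to 155 TPM in mutants, median 121.5 TPM, and 103 to 139 TPM in non-mutants, median 127 TPM. The 2 ages did not overlap in non-mutants and overlapped in mutants through 1 library, -/- replicate 1 at 8 dpp. The 12 minus 8 dpp log2 difference was 0.89 in mutants (SE 0.238, limma adjusted p = 0.00538) and 0.88 in non-mutants (SE 0.238, limma adjusted p = 0.00518). From 12 to 16 dpp the log2 difference was -0.25 in mutants (95% confidence interval -0.74 to 0.23) and -0.29 in non-mutants (-0.77 to 0.20), and neither was called.

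Of the receptors, Rarg was called at 1 age step in non-mutants and Rara at none. Rara (ENSMUSG00000037992, chr11:98927818-98974942, plus strand, mm10) averaged 50.9 ± 14.8, 58.0 ± 8.02 and 55.8 ± 2.88 TPM in mutants and 49.2 ± 10.4, 55.5 ± 9.94 and 49.95 ± 3.27 TPM in non-mutants at 8, 12 and 16 dpp (SD, n = 5 each), and passed no age test. Its 12 minus 8 dpp log2 difference had a 95% confidence interval of -0.09 to 0.54 in mutants and -0.14 to 0.49 in non-mutants. Rarg (ENSMUSG00000001288, chr15:102234938-102257517, minus strand, mm10) had 24.7, 12.9, 15.2, 10.6 and 18.0 TPM in mutants and 13.7, 16.3, 10.4, 15.6 and 13.97 TPM in non-mutants at 8 dpp. At 12 dpp it had 15.5 to 22.1 TPM in mutants and 18.1 to 21.02 TPM in non-mutants. Its 12 minus 8 dpp log2 difference was 0.26 in mutants (limma adjusted p = 0.241) and 0.50 in non-mutants (SE 0.163, limma adjusted p = 0.0188), where the 2 ages did not overlap. The non-mutant call was lost without +/+ replicate 1 of 8 dpp (0.41, limma adjusted p = 0.0751), and the mutant one was gained without -/- replicate 1 of 8 dpp (0.42, limma adjusted p = 0.0333). The difference between the 2 steps was -0.24 (95% confidence interval -0.71 to 0.23) and was not called.

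The 2 degrading enzymes stood far apart in level and in course. Cyp26a1 (ENSMUSG00000024987, chr19:37697798-37701536, plus strand, mm10), itself a classic target gene of retinoic acid, had 3.20, 1.97, 1.68, 2.0 and 3.76 TPM in mutants at 8 dpp, 4.55, 3.75, 5.80, 2.30 and 3.20 TPM at 12 dpp, and 6.92, 8.39, 12.5, 10.1 and 12.1 TPM at 16 dpp. In non-mutants it had 1.58 to 2.57 TPM at 8 dpp, 1.86 to 4.85 TPM at 12 dpp, and 6.46, 12.3, 7.19, 6.00 and 9.33 TPM at 16 dpp. Every library at 16 dpp was above every library of the earlier ages. The 16 minus 12 dpp log2 difference was 1.18 in mutants (SE 0.22, limma adjusted p = 0.000553) and 1.01 in non-mutants (SE 0.22, limma adjusted p = 0.00123). The 12 minus 8 dpp log2 difference was 0.48 in mutants (limma adjusted p = 0.104) and 0.51 in non-mutants (limma adjusted p = 0.0774). That call depended on single libraries. In non-mutants it was gained without +/- replicate 4 of 12 dpp (0.67, limma adjusted p = 0.0228), one of the 2 libraries of litter 13, and in mutants without -/- replicate 5 of 8 dpp (0.59, limma adjusted p = 0.0497) or -/- replicate 4 of 12 dpp (0.61, limma adjusted p = 0.0424).

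Cyp26b1 (ENSMUSG00000063415, chr6:84571414-84593908, minus strand, mm10) averaged 99.3 ± 17.8 TPM in mutants and 102 ± 18.8 TPM in non-mutants at 8 dpp, 123 ± 42.9 TPM in mutants and 129 ± 34.5 TPM in non-mutants at 12 dpp, and 122 ± 12.3 TPM in mutants and 96.8 ± 10.2 TPM in non-mutants at 16 dpp (SD, n = 5 each). No age step was called. The non-mutant steps rested on +/+ replicate 1 of 12 dpp, the lowest library of that age with 87.3 TPM: without it the log2 difference was 0.45 for 12 minus 8 dpp (limma adjusted p = 0.0453) and -0.51 for 16 minus 12 dpp (limma adjusted p = 0.0339). The ratio of Cyp26b1 to Cyp26a1 had a median of 43.3 in mutants and 40.4 in non-mutants at 8 dpp, and of 13.5 in mutants and 11.5 in non-mutants at 16 dpp.

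Both meiotic entry genes rose at the first age step and were not called at the second. Stra8 (ENSMUSG00000029848, chr6:34920163-34939344, plus strand, mm10) had 164, 63.4, 47.8, 25.7 and 86.6 TPM in mutants and 33.0, 99.2, 41.7, 91.2 and 83.4 TPM in non-mutants at 8 dpp. At 12 dpp it had 181, 146, 184, 169 and 186 TPM in mutants and 147, 165, 158, 163 and 167 TPM in non-mutants, and at 16 dpp 219.8, 202, 211, 207 and 180.3 TPM in mutants and 176, 214, 139, 177 and 206 TPM in non-mutants. The libraries of 8 dpp were widely spread, those of 12 dpp close together, and 12 and 16 dpp overlapped in both classes. The 8 and 12 dpp libraries did not overlap in non-mutants and did in mutants through -/- replicate 1 of 8 dpp. The 12 minus 8 dpp log2 difference was 1.40 in mutants (SE 0.297, limma adjusted p = 0.000605) and 1.31 in non-mutants (SE 0.297, limma adjusted p = 0.00112). The 16 minus 12 dpp log2 difference was 0.24 in mutants (95% confidence interval -0.37 to 0.84) and 0.17 in non-mutants (-0.43 to 0.78), and neither was called.

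Gm4969 (Meiosin, ENSMUSG00000085601, chr7:19099046-19118368, minus strand, mm10), the partner of STRA8, had 23.7, 5.46, 4.86, 1.98 and 7.45 TPM in mutants and 5.05, 15, 6.23, 6.97 and 13.8 TPM in non-mutants at 8 dpp. At 12 dpp it had 55.2, 31.8, 59.3, 63.9 and 74.5 TPM in mutants and 55.9, 52.2, 76.9, 68.2 and 49.3 TPM in non-mutants, and at 16 dpp 107, 75.6, 111, 82.2 and 71.1 TPM in mutants and 81.1, 101, 73.8, 83.6 and 74.8 TPM in non-mutants. No library of 8 dpp reached the lowest of 12 dpp in either class. The 12 minus 8 dpp log2 difference was 2.90 in mutants (SE 0.339, limma adjusted p = 2.27e-07) and 2.66 in non-mutants (SE 0.339, limma adjusted p = 9.5e-07), the largest of the 10 genes in both. The 16 minus 12 dpp log2 difference was 0.67 in mutants (limma adjusted p = 0.212) and 0.46 in non-mutants (limma adjusted p = 0.356). The ratio of Stra8 to Gm4969 had a median of 11.6 in mutants and 6.62 in non-mutants at 8 dpp. Its range at that age was 6.95 to 12.99 in mutants and 6.05 to 13.09 in non-mutants, so the classes overlapped. The median was 3.11 in mutants and 2.63 in non-mutants at 12 dpp, and 2.51 in mutants and 2.12 in non-mutants at 16 dpp. This ratio was not tested. At the first step markers of leptotene and zygotene cells rose with both genes. Their sum at 12 dpp was 281 to 514 TPM in mutants and 349 to 561 TPM in non-mutants, against the 8 dpp sums above. From 12 to 16 dpp neither gene was called, while 5 of the 6 markers rose in mutants and 4 in non-mutants. The median log2 difference of the markers at that step was 0.98 in mutants and 1.06 in non-mutants. The part of these markers in either step was not tested.

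**Figure D2:**
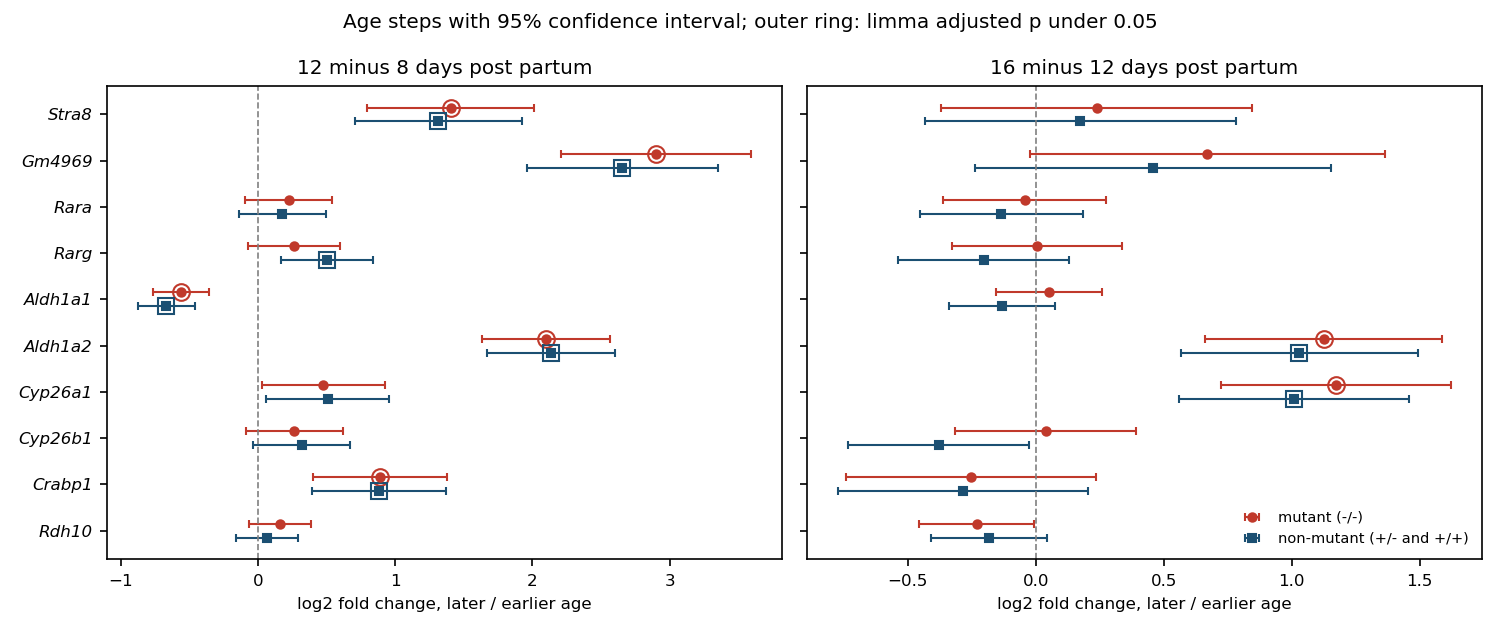
Log2 differences between ages for each gene (x axis, later over earlier age, on the log2(TPM + 1) scale) with 95% confidence intervals, mutants above non-mutants in each row; an outer ring or square marks a limma adjusted p under 0.05. Gm4969 lies near 2.90 and 2.66 at the first step, and Aldh1a2 and Cyp26a1 lie near 1 at the second.

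With +/+ libraries alone as non-mutants, of which 12 dpp has 1, Gm4969, Aldh1a2 and Aldh1a1 were still called for 12 minus 8 dpp. At that step the log2 difference was 1.27 for Stra8 (limma adjusted p = 0.203), 0.68 for Crabp1 (limma adjusted p = 0.447) and 0.57 for Rarg (limma adjusted p = 0.337). The 16 minus 12 dpp one was 1.0 for Aldh1a2 (limma adjusted p = 0.285) and 0.58 for Cyp26a1 (limma adjusted p = 0.533), so these calls were lost. The differences of Stra8 and Aldh1a2 were close to those with all non-mutants. With +/- libraries alone, the Rarg call was lost (0.40, limma adjusted p = 0.25).

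The second comparison asked whether the genes differed between mutants and non-mutants of the same age. At 8, 12 and 16 dpp, 0 of the 10 genes was called by limma. Over all rows 0% was called at 8 and at 12 dpp, and 3.26% at 16 dpp. With litter as a fixed block 370 of all rows were called higher and 667 lower in mutants at 16 dpp, against 102 and 551 without it. At an unadjusted p under 0.05 there were 0, 0 and 1 of the 10 genes and 417, 225 and 2473 of the 20021 rows at 8, 12 and 16 dpp, so the 1 gene is near the share over all rows. At 16 dpp the 6 pachytene and diplotene markers tested were all called lower in mutants, with a median log2 difference of -3.52. Stra8 differed at that age by 0.17 (95% confidence interval -0.43 to 0.78) and Gm4969 by 0.10 (-0.60 to 0.79). Aldh1a2 differed by 0.07 (-0.39 to 0.54), Crabp1 by 0.07 (-0.42 to 0.56) and Cyp26a1 by 0.26 (-0.19 to 0.71). The median of the 10 genes was 0.15 at 16 dpp, beside 0.07 over all rows. These intervals leave room for differences of up to 0.79 on the log2 scale.

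The 2 genes nearest to a call at 16 dpp were Cyp26b1 and Aldh1a1. Cyp26b1 had 112, 112.9, 119, 143 and 122 TPM in the 5 mutants and 106, 102, 82.5, 89.7 and 104 TPM in the 5 non-mutants. The groups did not overlap, and the mutant was the higher in 5 of 5 litters. It was the only such separation over all 10 genes and 3 ages. How many of all rows separate in this way at 16 dpp was not computed, so it has no background here. The log2 difference was 0.33 (95% confidence interval -0.02 to 0.68, limma adjusted p = 0.456), in a fit without litter. The limma adjusted p was 0.133 with litter as a fixed block and 0.201 with litter as a random effect. Markers of peritubular myoid cells, 5 genes, summed to 639.8 to 1356 TPM in mutants and 672 to 1158 TPM in non-mutants at this age. Their median log2 difference was 0.11. Endothelial markers, 4 genes, summed to 45.4 to 58.2 TPM in mutants and 26.35 to 54.8 TPM in non-mutants, with a median of 0.29. Leydig cell markers, 5 genes, summed to 155.0 to 468 TPM in mutants and 93.5 to 353 TPM in non-mutants, with a median log2 difference of 0.69, and macrophage markers, 5 genes, to 58.7 to 114 TPM in mutants and 39.0 to 78.2 TPM in non-mutants, with a median of 0.56. Each of these sums overlapped between the classes. None of these markers was called at 16 dpp, and their part was not tested. Aldh1a1 had 753, 932, 1039.8, 901 and 920.2 TPM in mutants and 766, 760.5, 694, 869.6 and 833 TPM in non-mutants, with the mutant the higher in 4 of 5 litters. Its log2 difference was 0.21 (95% confidence interval 0.003 to 0.42, limma adjusted p = 0.395). With litter as a fixed block the limma adjusted p was 0.221, and with litter as a random effect 0.186. Sertoli markers summed to 6170.0 to 7240 TPM in mutants and 6133 to 6665 TPM in non-mutants, and their part was not tested.

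**Figure D3:**
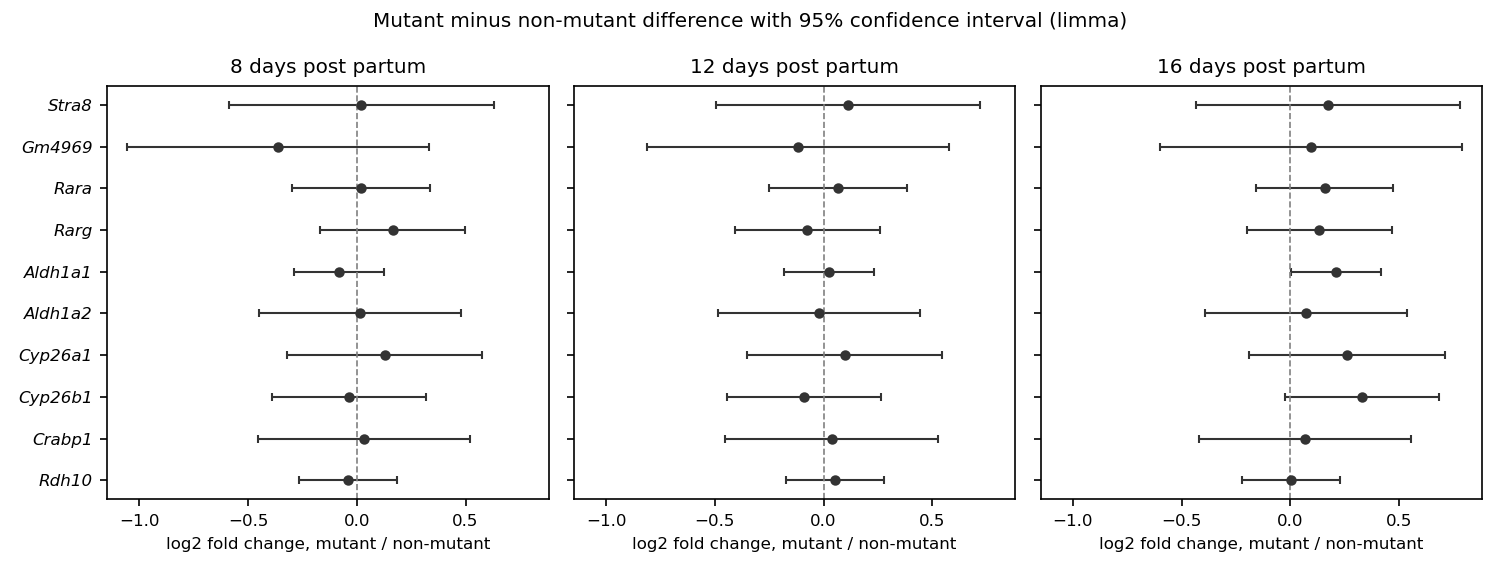
Log2 difference between mutants and non-mutants (x axis) for each gene at 8, 12 and 16 dpp with 95% confidence intervals. No gene passed the adjusted threshold, and the interval of Aldh1a1 at 16 dpp, from 0.003 to 0.42, is the one that leaves 0 outside.

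The third comparison asked whether the age steps themselves differed between mutants and non-mutants. By limma 0 of the 10 genes was called for the step from 8 to 12 dpp, where 0% of all rows and, at an unadjusted p under 0.05, 0 of the 10 genes and 367 of all rows passed. For the step from 12 to 16 dpp 0 of the 10 was called, also 0 at an unadjusted p under 0.05, where 1.35% of all rows were called and 1462 had an unadjusted p under 0.05. With litter as a random effect 63 of all rows were called higher and 384 lower for that difference, against 17 and 253 without it. The first step of Gm4969 differed by 0.24 (95% confidence interval -0.74 to 1.23), that of Stra8 by 0.09 (-0.77 to 0.95), and the second step of Cyp26b1 by 0.42 (-0.08 to 0.92). Heterozygotes were set against wild-type libraries with age as a factor over 18668 rows. Of the 10 genes 0 was called, also 0 at an unadjusted p under 0.05, and of all rows 0% was called, with 1972 at an unadjusted p under 0.05. The differences ran from -0.16 for Stra8 (95% confidence interval -0.62 to 0.29) to 0.18 for Aldh1a2 (-0.16 to 0.53).

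At 8 dpp the libraries of each class were widely spread, and 1 mutant stood at the top. The library -/- replicate 1, from litter 3, ranked highest of 10 for Stra8, Gm4969, Rarg, Aldh1a2 and Crabp1 and lowest for Aldh1a1. Its mate, +/+ replicate 1, ranked eighth for Stra8, Aldh1a2 and Crabp1 and second for Aldh1a1. The library -/- replicate 4, from litter 10, was lowest for Stra8, Gm4969, Rara, Aldh1a2 and Crabp1, and its mate +/- replicate 1 was ninth for Stra8, Aldh1a2 and Crabp1. The sum of the 6 leptotene and zygotene markers was 199.6 TPM in -/- replicate 1, the highest at this age, and 75.6 TPM in -/- replicate 4. It was lower still in +/- replicate 1, with 75.2 TPM, and in +/+ replicate 1, with 69.9 TPM. The library -/- replicate 1 was also the highest of its age for 7 markers of undifferentiated spermatogonia, with 202.9 TPM against at most 148 TPM in the others, and for 5 markers of differentiating spermatogonia, Stra8 among them, with 426 TPM against at most 273 TPM. The part of these markers in its values was not tested. In 3 of the 4 litters the mutant mean was below that of its non-mutant mates for Stra8, Gm4969, Aldh1a2 and Crabp1, and litter 3 was the exception for each. Without litter 3, chosen after the values were seen, the mutant minus non-mutant log2 difference was -0.46 for Stra8 and -0.89 for Gm4969, against 0.02 and -0.36 with it, and the limma adjusted p was 1 for both either way. Without litter 3 the 12 minus 8 dpp log2 difference in mutants was 1.74 for Stra8 (limma adjusted p = 5.01e-06) and 3.33 for Gm4969 (limma adjusted p = 1.04e-09).

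**Figure D4:**
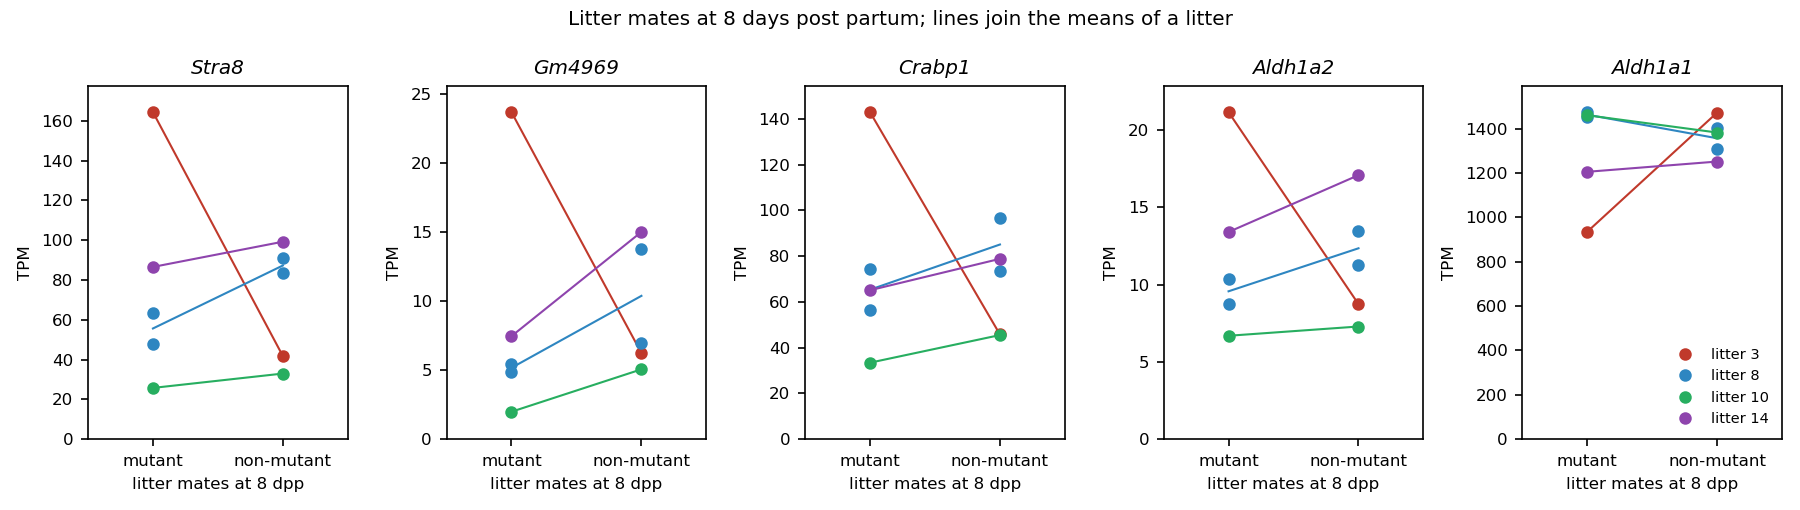
TPM (y axis, starting at 0) of 5 genes in the litter mates of 8 dpp, mutants left and non-mutants right, with a line between the means of each of the 4 litters. Litter 3 runs against the other litters for Stra8, Gm4969, Crabp1 and Aldh1a2, with its mutant highest; for Aldh1a1 its mutant is the lowest library.

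Genes reported as targets of STRA8 or MEIOSIN in early meiotic prophase were listed beside the 10 genes, 28 in all. The list was chosen with earlier results of these data known. All 6 markers of leptotene and zygotene cells used above are also on it, so the markers and this list are not separate observations. Of the 27 found in the table, 26 rose and 0 fell from 8 to 12 dpp in mutants, with a median log2 difference of 1.62, and 27 rose in non-mutants, with a median of 1.82. The median over all rows was 0.06 in mutants and 0.09 in non-mutants, and 17.5 and 20.3% of all rows rose. The 1 that was not called in mutants was Prdm9 itself. Dmc1, the recombinase of meiosis, averaged 39.9 TPM in mutants and 42.0 TPM in non-mutants at 12 dpp, against 7.58 and 7.75 TPM at 8 dpp, log2 differences of 2.33 (limma adjusted p = 3.4e-09) and 2.30 (limma adjusted p = 6.48e-09). Spo11, which cuts DNA to start recombination, rose by 2.35 in mutants and 2.16 in non-mutants. Hfm1, a helicase of crossover formation, rose by 2.27 in mutants and 2.38 in non-mutants, and Msh5, a mismatch repair relative that acts at crossovers, by 1.64 in mutants and 2.08 in non-mutants. From 12 to 16 dpp 12 of the 27 rose in mutants and 14 in non-mutants, and none fell. Over all rows 6.21% rose and 5.89% fell in mutants at this step, and 8.88% rose and 13% fell in non-mutants. Spo11 rose by 1.12 in mutants and 1.42 in non-mutants, and Hormad1, which marks unsynapsed chromosome axes, by 1.42 in mutants and 1.57 in non-mutants. Msh4, the partner of Msh5, rose by 1.38 in non-mutants (limma adjusted p = 1.2e-05) and Sycp2, an axis protein, by 1.15 (limma adjusted p = 0.000583), and both rose in mutants too. Between mutants and non-mutants at 16 dpp Prdm9 alone was called among the 27, and it fell by 1.24 (SE 0.264, limma adjusted p = 0.00352).

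Of 22 other regulators of meiotic entry, 9 rose and 2 fell from 8 to 12 dpp in mutants, and 9 rose and 3 fell in non-mutants. The shares that rose lay above those over all rows, 17.5% in mutants and 20.3% in non-mutants, and the shares that fell lay near them, 12.2% in mutants and 12.1% in non-mutants. Meioc, whose product with YTHDC2 clears mitotic transcripts, rose by 2.36 in mutants (limma adjusted p = 4.49e-07) and 2.35 in non-mutants (limma adjusted p = 5.62e-07). Ythdc2 rose by 0.87 in mutants and 1.09 in non-mutants, and Dazl, an RNA-binding gene that licenses germ cells for meiosis, by 0.75 in mutants and 0.92 in non-mutants. Ccnd2, a cyclin of spermatogonial divisions, fell by 0.99 in mutants (limma adjusted p = 8.3e-06) and 0.87 in non-mutants (limma adjusted p = 4.26e-05), and E2f6, a repressor of meiotic genes in dividing cells, fell by 0.39 in mutants and 0.33 in non-mutants. From 12 to 16 dpp 1 rose and 3 fell in mutants, and 3 rose and 5 fell in non-mutants. Over all rows 6.21% rose and 5.89% fell in mutants at this step, and 8.88% rose and 13% fell in non-mutants. Ccnd2 fell again, by 0.76 in mutants and 0.90 in non-mutants, as did Kitl, the ligand of the receptor KIT, by 0.60 in mutants and 0.58 in non-mutants, while Ythdc2 rose by 0.61 in mutants and 0.50 in non-mutants. Between mutants and non-mutants at 16 dpp 1 of the 22 was called, near the share of 3.26% over all rows. It was Pcgf6, a subunit of a Polycomb complex that represses germ cell genes, lower in mutants by 0.62 (limma adjusted p = 0.00131). Pcgf6 had 25.7 ± 1.53 TPM in mutants and 40.7 ± 9.04 TPM in non-mutants at 16 dpp (SD, n = 5 each). At 12 dpp its means were 21.2 TPM in mutants and 21.3 TPM in non-mutants.

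Of 29 other retinoid genes, 22 passed the filter. From 8 to 12 dpp 4 rose and 1 fell in mutants, and 4 rose and 2 fell in non-mutants, with medians of 0.004 and -0.05. The shares that rose lay near the 17.5 and 20.3% of all rows given above. Rbp4, the serum carrier of retinol, rose by 1.23 in mutants (limma adjusted p = 0.000284) and 0.87 in non-mutants (limma adjusted p = 0.00664). Stra6, the membrane receptor that takes retinol up from RBP4, fell by 0.54 in mutants (limma adjusted p = 0.00849) and 0.75 in non-mutants (limma adjusted p = 0.000483). The partner receptor Rxrb rose by 0.44 in mutants and 0.40 in non-mutants, and the coactivator Ncoa2 by 0.40 in mutants and 0.24 in non-mutants. From 12 to 16 dpp 3 rose and 2 fell in mutants, and 1 rose and 6 fell in non-mutants. Over all rows 6.21% rose and 5.89% fell in mutants, and 8.88% rose and 13% fell in non-mutants. Rdh11, a retinal reductase, rose by 0.59 in mutants (limma adjusted p = 0.00966) and 0.97 in non-mutants (limma adjusted p = 2.59e-05). The partner receptor Rxra fell by 0.40 in mutants (limma adjusted p = 0.0138) and 0.57 in non-mutants (limma adjusted p = 0.000287). Aldh1a7 rose by 0.45 in mutants (limma adjusted p = 0.00721). Between mutants and non-mutants 0 of the 22 was called at any age by limma. Over all rows 0% was called at 8 and at 12 dpp, and 3.26% at 16 dpp.

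**Figure D5:**
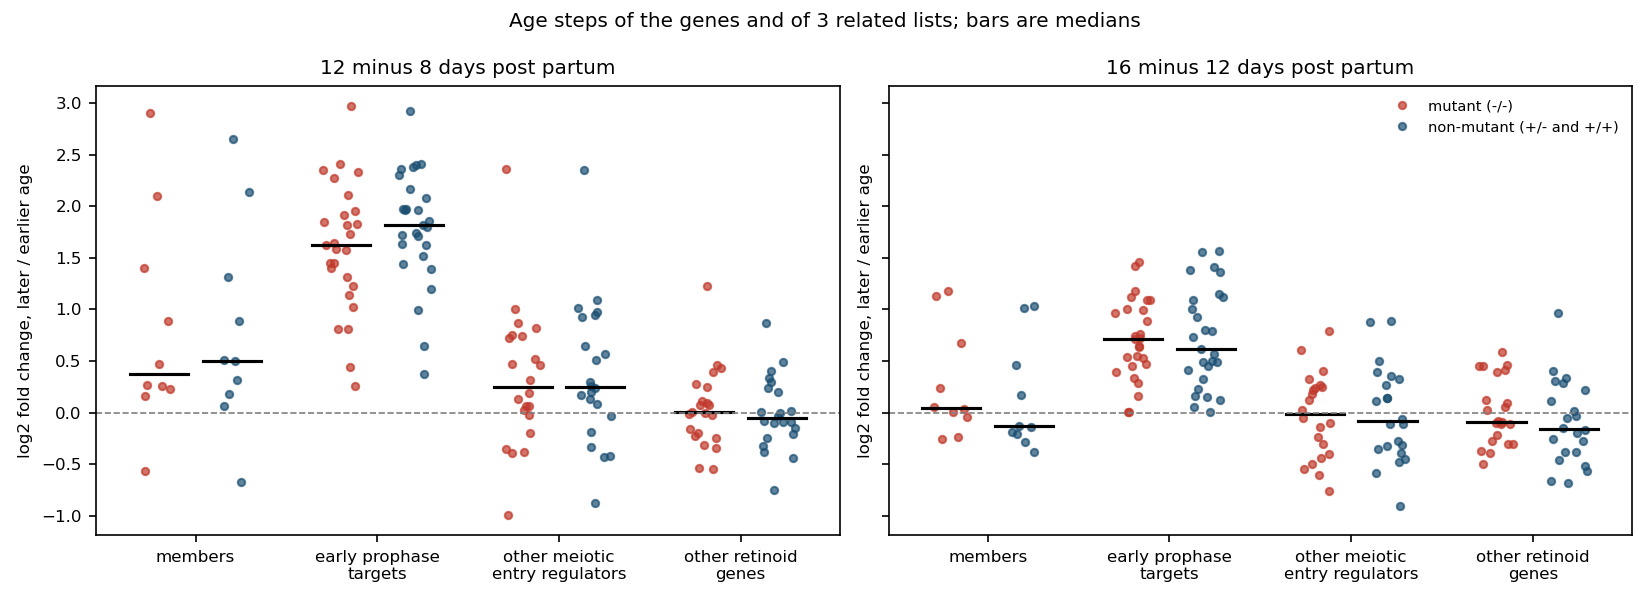
Log2 differences between ages (y axis) of the 10 genes ("members") and of the genes of 3 related lists that passed the filter, mutants left and non-mutants right, with medians as bars. At the first step the early prophase targets lie around medians of 1.62 in mutants and 1.82 in non-mutants, and the other retinoid genes around 0.

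Likeness across the 30 libraries was described by Pearson's r on log2(TPM + 1), among 13690 or 13691 other protein-coding genes. Libraries of an age share that age, and likeness within an age was not computed. Aldh1a2 was most like Tex101 (0.993), Zfp541 (0.991), Hfm1 (0.991), Ly6k (0.991) and Dpep3 (0.990). Tex101 and Hfm1 are on the list of early prophase targets above. Gm4969 was most like Prss50 (0.988), Bicdl1 (0.985), Zcwpw1 (0.982), Meioc (0.981, one of the listed regulators) and Cpeb1 (0.98). Stra8 was most like Xrcc6 (0.968), Fkbp6 (0.960), Ap1b1 (0.956), Dazl (0.954, also a listed regulator) and Nxf2 (0.954). Crabp1 was most like Galnt12 (0.957), Aldh1a1 like Me1 (0.958) and Cyp26a1 like Aqp8 (0.946). The closest genes of Rarg, Scube3 (0.905), and Rara, Efhd2 (0.902), were less alike, and those of Cyp26b1, Zkscan8 (0.783), and Rdh10, N4bp1 (0.731), least.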

How the data were processed

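RNA was sequenced from 30 libraries, 1 per numbered animal of 14 litters per the file headers. The deposited values are TPM per gene, estimated by the authors; RSEM 1.2.8, Bowtie 1.0.0 and the builds mm10 and GRCm38 are named, with no role or order, per the submitters' processing notes. Strand use is not stated. TPM keeps no depth, so no counting interval can be given, and the number of animals sets the precision. The table held here is a part and lacks 3.23 to 3.95% of a library's TPM. GENCODE M21 gave symbols and positions for 37709 of 38906 Ensembl rows.

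With limma 3.58.1 in R 4.3.3, limma-trend was fitted to log2(TPM + 1) of rows above 1 TPM in at least 5 libraries, in 1 fit of 6 groups (mutant or non-mutant at 3 ages). All rows entered the Benjamini-Hochberg adjustment. Heterozygotes and wild types were fitted with age as a factor. A permutation test planned for genes under the filter had no use, since all 10 passed. The fit was tested on simulated data. Alternatives changed the pseudocount, filter, scaling, non-mutant genotype, litter block, ages fitted and each library in turn.

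Litter pairs the animals per the file headers: the deviations of 17 mutant and non-mutant pairs of a litter from their group means correlated at 0.0628 to 0.39 (median 0.22), against a median of -0.0836 for 58 pairs of other litters. All 10 genes are named. From each list up to 4 called genes with the smallest adjusted p per contrast are named, besides genes whose role the text needs and except 1 gene that is not reported here; likeness names 5 genes for Stra8, Gm4969 and Aldh1a2, and up to 3 for the rest. Genes and lists were chosen with earlier results of these data known.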

Additional observations from a re-analysis of the deposited data

Results flagged for a closer look

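In groups of 5 libraries, 60 were checked for a library far from the others, by the gap to its nearest neighbour over the group's range (above 0.71), and 2 stood out; chance flags about 1 in 20. Gm4969 had 23.67 TPM in -/- replicate 1 at 8 dpp, against 1.98 to 7.45 TPM in the other mutants of that age, a gap of 0.748 of the range. That library is also the highest of its age for Stra8, Aldh1a2, Crabp1 and Rarg. Cyp26b1 had 198.4 TPM in -/- replicate 2 at 12 dpp, against 91.4 to 111 TPM in the other mutants, a gap of 0.819 of the range. Its litter mate, +/- replicate 2, had 169.9 TPM, the highest of the 5 non-mutants of that age.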

How the results depend on the processing

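Over all alternatives, 3750 values of the 10 genes were recomputed: 3735 kept their direction and side of the threshold where called, 7 lost a call, 8 gained one and 0 reversed, while 181 uncalled values changed sign. With +/+ libraries alone as non-mutants, 3 of the 10 genes were called for 12 minus 8 dpp (2 rose, 1 fell) and 0 for 16 minus 12 dpp; 12 dpp then has 1 library, assumed to vary like the other groups. With litter as a replicate block, fixed or random (consensus correlation 0.294), 0 of the 10 genes was called between mutants and non-mutants at 8, 12 or 16 dpp. The fixed block was fitted for these comparisons only. Each litter has a single age, so the age steps and their differences were not tested with it. With the random block no call of the 10 genes at an age step changed. The block could not be fitted for heterozygotes against wild types, where 1 litter has 2 non-mutants. Without litter 13, Cyp26a1 was called for 12 minus 8 dpp in non-mutants (0.67, limma adjusted p = 0.0254). Without litter 3, added after seeing the data, Rarg was called for that step in mutants (0.42, limma adjusted p = 0.0252). Counts over all rows moved more: mutants against non-mutants at 16 dpp gave 102 higher and 551 lower, but 370 and 667 with the fixed block, 364 and 739 with the random one, 34 and 135 with +/+ alone, 100 and 305 fitted at that age alone, 175 and 1006 of 46579 rows unfiltered, 64 and 318 without +/- replicate 2 of 16 dpp and 52 and 314 without +/- replicate 3. The difference of the 12 to 16 dpp steps gave 17 higher and 253 lower, but 8 and 160 with a pseudocount of 0.1, 7 and 159 with +/- alone and 0 and 62 with +/+ alone. It gave 10 and 111 without +/- replicate 2 of 16 dpp and 9 and 123 without +/- replicate 3. For 12 minus 8 dpp in non-mutants, 421 rose and 879 fell with +/+ alone and 2199 and 1289 with +/- alone, against 4067 and 2430. For 16 minus 12 dpp, 265 rose and 101 fell with +/+ alone, 1366 and 1190 with +/- alone, and 1238 and 1648 without +/- replicate 3 of 16 dpp, against 1777 and 2595. Depth is unknown, so the reliability of low levels such as those of Cyp26a1 cannot be judged from counts.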
